A study of Mus musculus with 8 samples.

Results

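Stress granules and cytoplasmic mRNA decay were followed through 39 genes in the injured mouse spinal cord, picked by gene symbol for the known roles of their proteins, with earlier results of these data known. All 39 symbols were found among the 54532 genes of the deposited count table, and all 39 passed the low-count filter, which kept 16537 genes in all. The tissue was spinal cord taken 7 days after spinal cord injury (SCI), with 4 libraries of genotype Tia1f/f, called control, and 4 of genotype Tia1Nestin-CKO, called CKO. Both groups were injured and there was no uninjured group, so the values compare genotypes and do not show a response to injury. By its name the CKO genotype removes Tia1 through Nestin, which is active in neural progenitors, and cells outside that lineage keep Tia1. The deleted exons, the Cre line, and the age and sex of the mice are not stated in the labels. The labels number the samples without saying that each came from a separate mouse, so p-values measure the spread between samples, which may be technical.

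TIA1 is an RNA-binding protein that gathers stalled translation initiation complexes into stress granules, and TIAL1 is its close paralog. When translation initiation stops, G3BP proteins bind the released mRNA and condense it with CAPRIN1, ataxin-2 and poly(A)-binding proteins, while mRNAs due for destruction are deadenylated, decapped by DCP2 and digested from the 5′ end by XRN1, partly in processing bodies. A second route acts on messages with AU-rich elements in the 3′ untranslated region (3′UTR): proteins of the ZFP36 family bind these elements and recruit the deadenylase, and TIA1 binds AU-rich elements as a repressor of translation.

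The AU-rich sites carried by the members themselves are shown first, because the ZFP36 family both reads such sites and carries them. The nonamer TTATTTATT, the core site of the ZFP36 family, was searched on the sense strand of the 3′UTR of 1 transcript per gene. It was found in 7 of 39 members (17.9%), against 7.27% of 20349 coding genes with a 3′UTR of at least 50 bases. The members' 3′UTRs were longer than those of all coding genes, with medians of 1071 and 882 bases, and length was not matched in this description. The first site of each of the 7 is printed with its flanks, 5′ to 3′ on the transcript, with the nonamer in capitals (GENCODE M21 transcripts, GRCm38).
Zfp36: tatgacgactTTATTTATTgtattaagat
Zfp36l1: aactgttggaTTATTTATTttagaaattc
Zfp36l2: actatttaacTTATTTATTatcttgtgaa
Atxn2: aaactggaagTTATTTATTttttaatggc
Ybx3: ttttatgcccTTATTTATTcctaggatga
Fmr1: tgatttctagTTATTTATTctgggaatgt
Edc3: agcttctagcTTATTTATTggcttgcctt

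All 3 ZFP36 family members carry the site. The printed stretch of Zfp36, site with flanks, lies at chr7:28376951-28376979 on the minus strand, with the site itself 589 bases after the stop codon. That of Zfp36l1 lies at chr12:80108167-80108195 on the minus strand, and that of Zfp36l2 at chr17:84184914-84184942, also on the minus strand. The other 4 are at chr5:121814623-121814651 (Atxn2, plus), chr6:131364945-131364973 (Ybx3, minus), chrX:68717204-68717232 (Fmr1, plus) and chr9:57750553-57750581 (Edc3, plus). A match in the sequence is a description and not a measured binding site.

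The libraries held 14752733 to 17802884 counts, the lowest total in the library labelled control 1. Central nervous tissue markers were present throughout, with summed normalized counts scaled to library size (CPM) of 8995 to 14525 for 6 astrocyte genes, 19836 to 31145 for 6 oligodendrocyte genes and 784 to 2181 for 8 neuronal genes. The library labelled control 1 stood apart, with counts for 18884 genes against 22434 to 23414 in the other 7. It was the highest or lowest of the 8 libraries for 24 of 39 members (61.5%), close to the 56.9% over all genes tested. The library labelled control 2 was the highest or lowest for 17 members (43.6%, against 29.6% of all genes), and each of the other 6 for 3 to 9. For every member, the plot of fold changes also shows the value without control 1. Other marker lists also differed between libraries. All 8 neutrophil genes had a log2 fold change above 0 (median 0.71), with a summed 1880 CPM in CKO 2 and 254 to 741 CPM elsewhere, all 8 neuronal genes had one below 0 (median -0.41), and so did all 4 Schwann cell genes (median -0.36). None of these genes passed the test. Skeletal muscle genes summed to 12.9 to 490.2 CPM, high and low in both groups. The part of these cell types in the members' values was not tested.

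No member passed the test between CKO and control. By edgeR's quasi-likelihood test with Benjamini-Hochberg adjustment over all genes, 0 of 39 members were past an adjusted p of 0.05, and 0% of the 16537 genes tested were. At an unadjusted p under 0.05 there were also 0 members, against 1.42% of all genes (234 genes). The smallest unadjusted p of a member was 0.0654. The DESeq2 Wald test called 0 members and 1 other gene, and had 0 members at an unadjusted p under 0.05. In 0 members did all libraries of one group lie above all of the other, against 1.19% of all genes (0.701% with CKO higher and 0.49% with CKO lower).

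The differences were small in both directions. The log2 fold change was above 0 for 23 of 39 members, where 48.1% of all genes tested were above 0, and its median was 0.02 against -0.01 for all genes. It ran from -0.33 for Dcp2 to 0.43 for Zfp36l1. The 95% interval had a median half-width of 0.36 log2 units, and for 38 of 39 members the whole interval lay within a 2-fold change either way. Ybx1 was the exception, with an interval reaching 1.06. At this depth and spread, changes smaller than these intervals were not detectable, and larger ones could also be missed. On simulated data the test recovered 10% of genes changed 1.5-fold and 48% of those changed 2-fold. The simulated counts varied independently for each gene, without a deviation shared across genes, so these shares may not hold for these libraries. In bulk tissue, fewer cells of a type and less RNA per cell cannot be told apart.

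**Figure D1:**
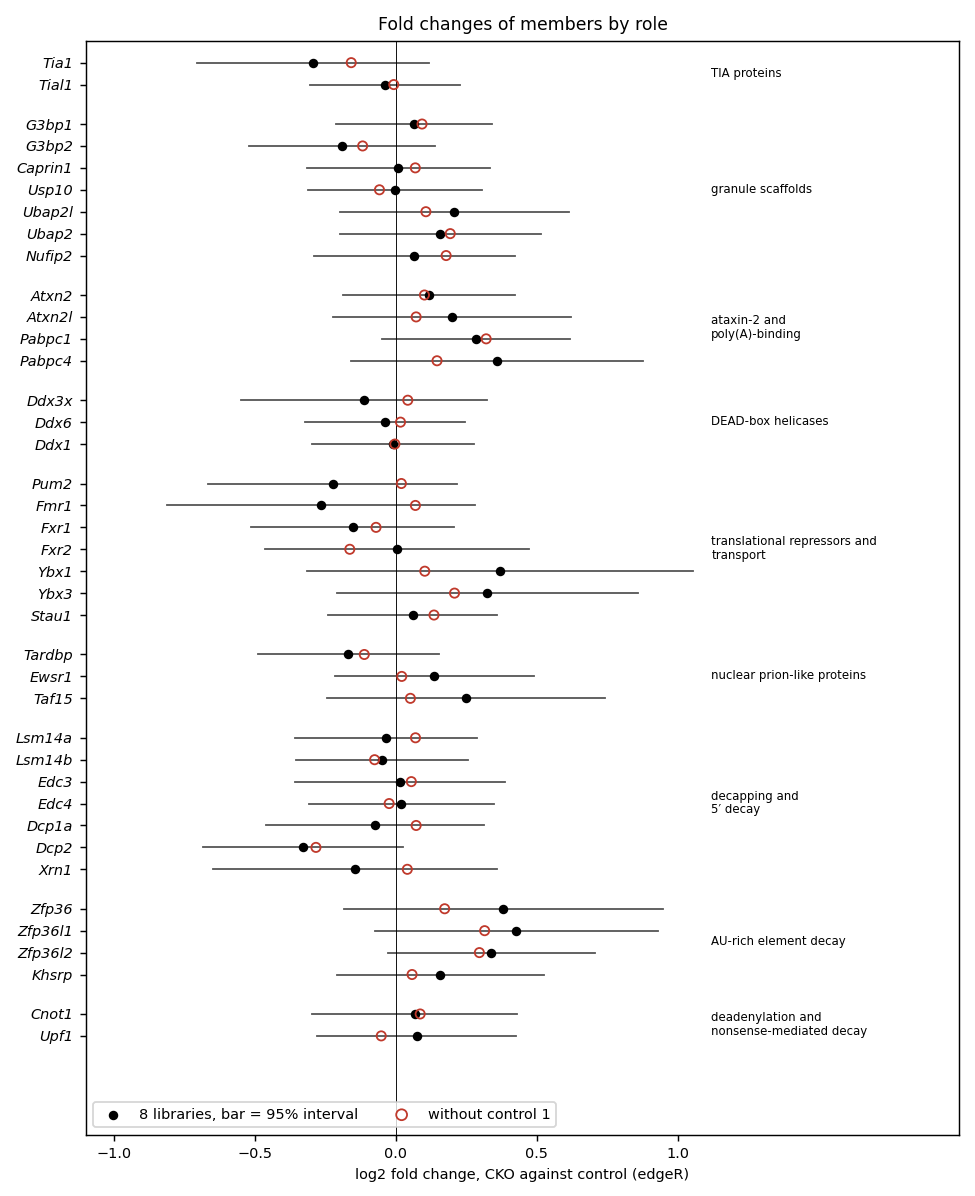
Log2 fold change of each of the 39 members, CKO against control, grouped by role, from edgeR with 8 libraries (filled points, bars are 95% intervals) and without the library labelled control 1 (open circles). Every interval crosses 0, and the open circle lies nearer to 0 than the filled point for 25 of 39 members. Control 1 was singled out for standing apart, so its omission tends to shrink differences.

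Per listed gene length, the members spanned a 177-fold range. Ybx1, a cold-shock domain protein that packages mRNA and restrains its translation, had the highest mean level, 247.8 fragments per kilobase of gene length and library size (FPKM), and Xrn1, the 5′ to 3′ exonuclease, the lowest, 1.40 FPKM. Pabpc1, the main cytoplasmic poly(A)-binding protein, stood at 98.4 FPKM and the RNA helicase gene Ddx3x at 57.6 FPKM. The median member was at 13.3 FPKM, 10 members were above 20 FPKM and 8 below 5 FPKM. Tia1 was second lowest at 1.88 FPKM, a rank that rests on the listed gene length of 15750 bases. Per kilobase of its chosen transcript, of 4477 bases, 5 members were lower than Tia1. For Xrn1 the listed length was 18585 bases and the chosen transcript 5499 bases. Dcp1a had fewer CPM on a chosen transcript of 5576 bases, so Xrn1 was not the lowest per transcript length. Of the decapping genes, Dcp1a was at 2.18 FPKM and Dcp2 at 5.80 FPKM. Raw counts of members ranged from 176 to 14786 in single libraries, so no member rests on a handful of reads.

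**Figure D2:**
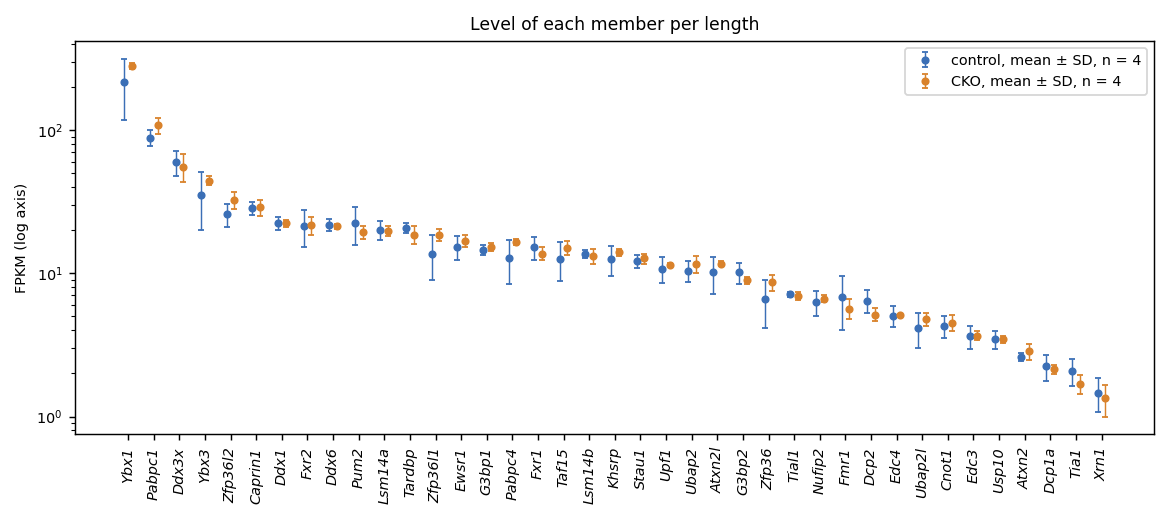
Mean FPKM (log axis) of each member in control and CKO, with bars of 1 SD over 4 libraries, ordered by the mean of all 8 libraries. On the listed gene lengths, levels fall from Ybx1 at 247.8 FPKM to Xrn1 at 1.40 FPKM, and Tia1 is second from the low end.

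The TIA proteins come first, since Tia1 is the targeted gene. Tia1 (chromosome 6, 86404219 to 86433405, plus strand, GRCm38) stood at 41.9, 24.4, 31.3 and 34.2 normalized CPM in control 1 to 4 and at 23.4, 27.8, 24.0 and 32.1 CPM in CKO 1 to 4. The groups overlapped, because control 2 lay among the lower CKO libraries and CKO 4 among the control libraries. The log2 fold change was -0.29 (SE 0.19, n = 4 per group) with an unadjusted edgeR p of 0.144 and an exact two-sided permutation p of 0.20. Without control 1 it was -0.16, and without control 2 it was -0.41 at an unadjusted edgeR p of 0.0399, an omission of the lowest control library that must enlarge the difference. The count covers every exon, including any left in a deleted transcript, and so does not measure TIA1 protein.

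The paralog Tial1 varied less among libraries and was more abundant per listed gene length. It stood at 52.7, 49.3, 47.2 and 49.3 CPM in control libraries, against 48.0, 51.6, 44.8 and 49.1 CPM in CKO libraries, with a log2 fold change of -0.04 (SE 0.12, 95% interval -0.30 to 0.23, n = 4 per group) and an exact two-sided permutation p of 0.457. The groups covered nearly the same range. Tial1 was at 7.11 ± 0.256 FPKM (SD, n = 4) in control and 6.96 ± 0.419 FPKM in CKO, whereas Tia1 was at 2.07 ± 0.437 and 1.70 ± 0.261 FPKM. The size of this gap rests on listed gene lengths of 6903 bases for Tial1 and 15750 for Tia1. Their chosen transcripts have 4451 and 4477 bases, on which the gap would be smaller.

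The ratio of the paralogs within a library needs no scaling between libraries. Its level rests on the listed gene lengths, but the difference of its log2 between the groups does not. Tia1 over Tial1 in FPKM was 0.348, 0.217, 0.290 and 0.304 in control 1 to 4 and 0.214, 0.236, 0.235 and 0.287 in CKO 1 to 4. Control 2 again lay with the CKO libraries, and CKO 4 near the controls. The log2 ratio was -1.81 ± 0.29 (SD, n = 4) in control and -2.05 ± 0.18 in CKO, a difference of -0.24 with an exact two-sided permutation p of 0.229, where the smallest p that 4 against 4 allows is 0.0286. Leaving out each library in turn gave differences from -0.37 to -0.15, so the direction held in those 8 fits. None of their exact permutation p-values was below 0.0571, and these fits allow fewer assignments, so their p-values move in coarser steps. Without control 2 the groups did not overlap in this ratio. Control 2 was the lowest control library, so its omission must enlarge the difference.

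**Figure D3:**
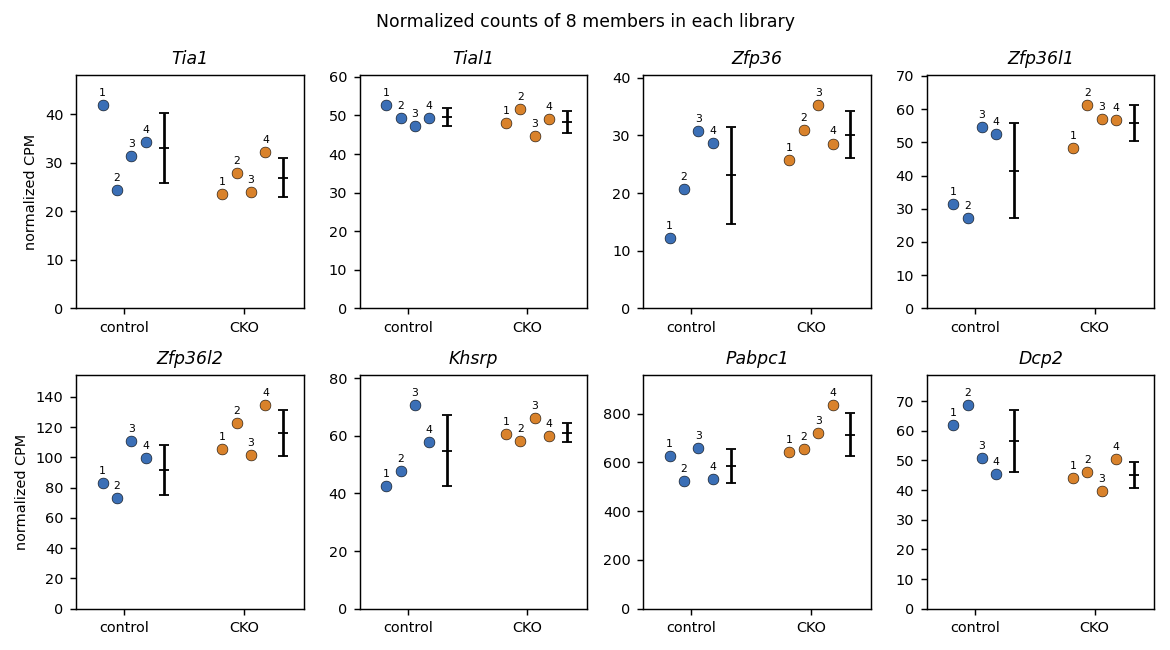
Normalized CPM of 8 members in each library, with the replicate number of the labels beside each point and the mean with 1 SD at the right of each group (n = 4). Points of control and CKO overlap in all 8 panels, and control 1 and control 2 are the lowest libraries for Zfp36, Zfp36l1, Zfp36l2 and Khsrp.

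Among the stress granule scaffolds, 5 of 7 were higher and 2 lower in CKO (median log2 fold change 0.07), and none passed the test. G3bp1, whose protein nucleates the granule, stood at 110.1, 93.6, 111 and 101 CPM in control libraries, against 111, 104, 103 and 117 CPM in CKO libraries. The groups overlapped almost wholly, with a log2 fold change of 0.07 (SE 0.13). Its paralog G3bp2 stood at 102, 103, 74.9 and 76.0 CPM in control libraries, against 72.2, 82.6, 79.3 and 77.3 CPM in CKO libraries. Control 1 and 2 were high, control 3 and 4 were within the CKO range, and the log2 fold change was -0.19 (SE 0.15, unadjusted edgeR p 0.230). Without control 1 it was -0.12. Exons of G3bp2 and of Gm26582 on the opposite strand share 2050 bases, and whether strand was used in counting is not given.

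The binding partners of G3BP and the other scaffolds had differences well within their intervals. Caprin1, the partner that promotes condensation, had a log2 fold change of 0.01 (SE 0.15), and Usp10, the deubiquitinase that competes for the same site on G3BP, of -0.0019 (SE 0.14). Ubap2l, which is needed for granule assembly, and its relative Ubap2 were at 0.21 (SE 0.18) and 0.16 (SE 0.16). Nufip2, a further granule protein, was at 0.07 (SE 0.16). Ubap2l was low in 2 control libraries, at 60.8 and 62.7 CPM in control 1 and 2, and at 82.1 to 104 CPM in the other 6. Its log2 fold change was 0.11 without control 1, 0.12 without control 2, and 0.38 without control 3, its highest control library (unadjusted edgeR p 0.0473, adjusted p 0.757).

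The ataxin-2 and poly(A)-binding genes were higher in CKO in 4 of 4 cases, with a median of 0.24, and none passed the test. Pabpc1 stood at 627, 522, 661 and 530.0 CPM in control libraries, against 641, 656, 721 and 834 CPM in CKO libraries. CKO 3 and 4 lay above every control library and CKO 1 and 2 within the control range, for a log2 fold change of 0.29 (SE 0.15, unadjusted edgeR p 0.0866). Without control 3, its highest control library, it was 0.35 at an unadjusted edgeR p of 0.0488. Pabpc4, an inducible poly(A)-binding protein, stood at 27.0, 57.7, 66.9 and 57.0 CPM in control libraries, against 70.0, 69.3, 64.5 and 64.1 CPM in CKO libraries. Control 1 was the lowest library, so its omission must shrink the difference. The log2 fold change was 0.36 (SE 0.23) with all libraries and 0.15 without control 1. Atxn2 was at 0.12 (SE 0.14) and Atxn2l at 0.20 (SE 0.19), the latter again low in control 1 and 2 at 35.2 and 38.8 CPM against 53.0 to 62.6 CPM in the others. The Atxn2l value was 0.07 without control 1, 0.10 without control 2 and 0.35 without control 3.

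The DEAD-box helicases, which unwind mRNA and regulate its entry into granules, were lower in CKO in 3 of 3 cases by 0.11 log2 units or less. Ddx3x, which assists translation initiation, stood at 417, 278, 309 and 273 CPM in control libraries, against 254, 349, 228 and 348 CPM in CKO libraries. It split the CKO group into a low and a high pair, with control 1 above all other libraries. The log2 fold change was -0.11 (SE 0.20) and turned to 0.04 without control 1. Ddx6, the helicase that links repressed mRNA to decapping, was at -0.04 (SE 0.13), and Ddx1 at -0.01 (SE 0.13).

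Of the translational repressors and transport proteins, 4 of 7 were higher and 3 lower, with a median of 0.00. Ybx1 stood at 215, 564, 811 and 614 CPM in control libraries, against 738, 738, 662 and 710.2 CPM in CKO libraries. Control 1 was the lowest of the 8 libraries, and the log2 fold change of 0.37 (SE 0.31) became 0.10 without it. Its counts are uncertain to the extent that reads match the Ybx1 pseudogene in the table. Ybx3, its relative, stood at 81.6, 95.04, 179 and 82.5 CPM in control libraries, against 138, 124, 143 and 145 CPM in CKO libraries. The 4 CKO libraries lay together between control 3, which was the highest of all, and the other 3 control libraries. The log2 fold change was 0.33 (SE 0.24, unadjusted edgeR p 0.206). Without control 3 it was 0.67, with an unadjusted edgeR p of 7.9e-04 and an adjusted p of 0.757. Leaving out the highest control library must enlarge the difference.

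Fmr1 and Pum2 showed the opposite pattern in control 1. The Fmr1 paralog Fxr2 did not, and was lowest there at 51.5 CPM, against 71.3 to 107 CPM elsewhere. Fmr1, which represses translation of transported mRNA in neurons, stood at 99.9 CPM in control 1 and at 44.5 to 61.6 CPM in the other 7 libraries. Pum2, a repressor that binds its own motif in 3′UTRs, stood at 241 CPM in control 1 and at 130 to 162 CPM in the others. Their log2 fold changes of -0.27 (SE 0.25) and -0.22 (SE 0.20) became 0.07 and 0.02 without control 1. Fxr1 and Fxr2, the paralogs of Fmr1, were at -0.15 (SE 0.16) and 0.00 (SE 0.21), or at -0.07 and -0.16 without control 1, and Stau1, which binds double-stranded RNA, was at 0.06 (SE 0.14).

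The nuclear prion-like proteins enter granules under stress and are known from motor neuron disease. Tardbp, which encodes TDP-43, stood at 183, 166, 155 and 151 CPM in control libraries, against 130.3, 168, 126 and 158 CPM in CKO libraries. CKO 1 and 3 lay below every control library and CKO 2 and 4 within their range, for a log2 fold change of -0.17 (SE 0.15, unadjusted edgeR p 0.271). It shares 1817 exonic bases with Masp2 on the opposite strand. Taf15 was at 20.6 CPM in control 1 and 37.7 to 49.5 CPM elsewhere, with a log2 fold change of 0.25 (SE 0.22) that became 0.05 without that library. Ewsr1, of the same protein family as Taf15, was at 0.14 (SE 0.16), and at 0.02 without control 1.

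The decapping and 5′ decay genes were lower in CKO in 5 of 7 cases, with a median of -0.05. Dcp2, the decapping enzyme itself, stood at 61.9, 68.6, 50.7 and 45.5 CPM in control libraries, against 44.0, 46.2, 39.7 and 50.6 CPM in CKO libraries. It was highest in control 1 and 2 and overlapped in the remaining libraries, for a log2 fold change of -0.33 (SE 0.16, 95% interval -0.68 to 0.02, unadjusted edgeR p 0.0654). Without control 4 it was -0.42 at an unadjusted edgeR p of 0.0280, with an adjusted p of 0.98, and control 4 was the lowest control library. Its activator Dcp1a was at -0.07 (SE 0.18).

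The rest of the decapping machinery lay near 0. The enhancers of decapping Edc3 and Edc4 were at 0.01 (SE 0.17) and 0.02 (SE 0.15), and Lsm14a and Lsm14b, which hold repressed mRNA in processing bodies, at -0.03 (SE 0.15) and -0.05 (SE 0.14). Edc4 was very even in CKO, with 28.4 ± 0.361 CPM (SD, n = 4) against 28.0 ± 4.46 CPM among controls. Xrn1 stood at 37.6, 19.7, 28.3 and 24.9 CPM in control libraries, against 23.3, 23.7, 19.2 and 33.7 CPM in CKO libraries. The groups covered much the same range, with a log2 fold change of -0.14 (SE 0.23) that became 0.04 without control 1.

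The AU-rich element decay genes were higher in CKO in 4 of 4 cases, with the highest median of the 9 roles, 0.36. None passed the test. Zfp36l2, which destabilizes AU-rich messages, stood at 83.2, 73.4, 111 and 99.3 CPM in control libraries, against 105, 123, 102 and 134 CPM in CKO libraries, for a log2 fold change of 0.34 (SE 0.17, unadjusted edgeR p 0.0654). Zfp36l1, its close relative, stood at 31.3, 27.2, 54.7 and 52.6 CPM in control libraries, against 48.2, 61.2, 57.0 and 56.8 CPM in CKO libraries, for 0.43 (SE 0.23, unadjusted edgeR p 0.0867). Of the CKO libraries, 3 were above every control library for Zfp36l1 and 2 for Zfp36l2.

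Zfp36, which encodes tristetraprolin, the founding member and an early response gene, stood at 12.2, 20.7, 30.7 and 28.7 CPM in control libraries, against 25.7, 30.9, 35.2 and 28.6 CPM in CKO libraries, for 0.38 (SE 0.26, unadjusted edgeR p 0.165). Khsrp, which recruits decay enzymes to AU-rich RNA, stood at 42.8, 47.7, 70.6 and 58.0 CPM in control libraries, against 60.6, 58.1, 66.0 and 59.9 CPM in CKO libraries, for 0.16 (SE 0.17). In each of the 4 genes control 1 and control 2 were the lowest libraries, and control 3 and control 4 lay within or near the CKO range. Exons of Zfp36l1 share 1672 bases with Gm26669 on the opposite strand.

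As a list level, the mean of the 4 genes' log2 CPM relative to each gene's mean, the AU-rich element decay genes were at -0.59 and -0.46 in control 1 and 2, at 0.23 and 0.08 in control 3 and 4, and at 0.04, 0.24, 0.24 and 0.22 in CKO 1 to 4. The low values were those of 2 control libraries. The same 2 libraries had the lowest summed level of 6 endothelial marker genes, 91.4 and 106 CPM, against 148 to 185 CPM in the other 6, and control 2 had the highest summed level of 8 neuronal markers, 2181 CPM against 784 to 1294 CPM. In these 2 marker lists 0 genes were at 0 in any library. The summed level of 11 immediate early genes ran from 336 CPM in control 2 to 389 CPM in CKO 2, with 339 CPM in CKO 1. The part of these differences in the result was not tested.

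Without both control 1 and control 2, the log2 fold changes were 0.14 for Zfp36l2, 0.05 for Zfp36l1, 0.01 for Zfp36 and -0.08 for Khsrp. These libraries were chosen for being low in these genes, so their omission must shrink the difference. Without control 1 alone the values were 0.30, 0.32, 0.17 and 0.06, and without control 3 they were 0.45, 0.59, 0.55 and 0.31. The unadjusted edgeR p without control 3 was 0.0243 for Zfp36l2 and 0.0260 for Zfp36l1, with an adjusted p of 0.757 for both, and control 3 was the highest control library in each of the 4 genes. For Zfp36l1 the unadjusted edgeR p was also 0.0422 without control 4 and 0.0490 with no filter on low counts.

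**Figure D4:**
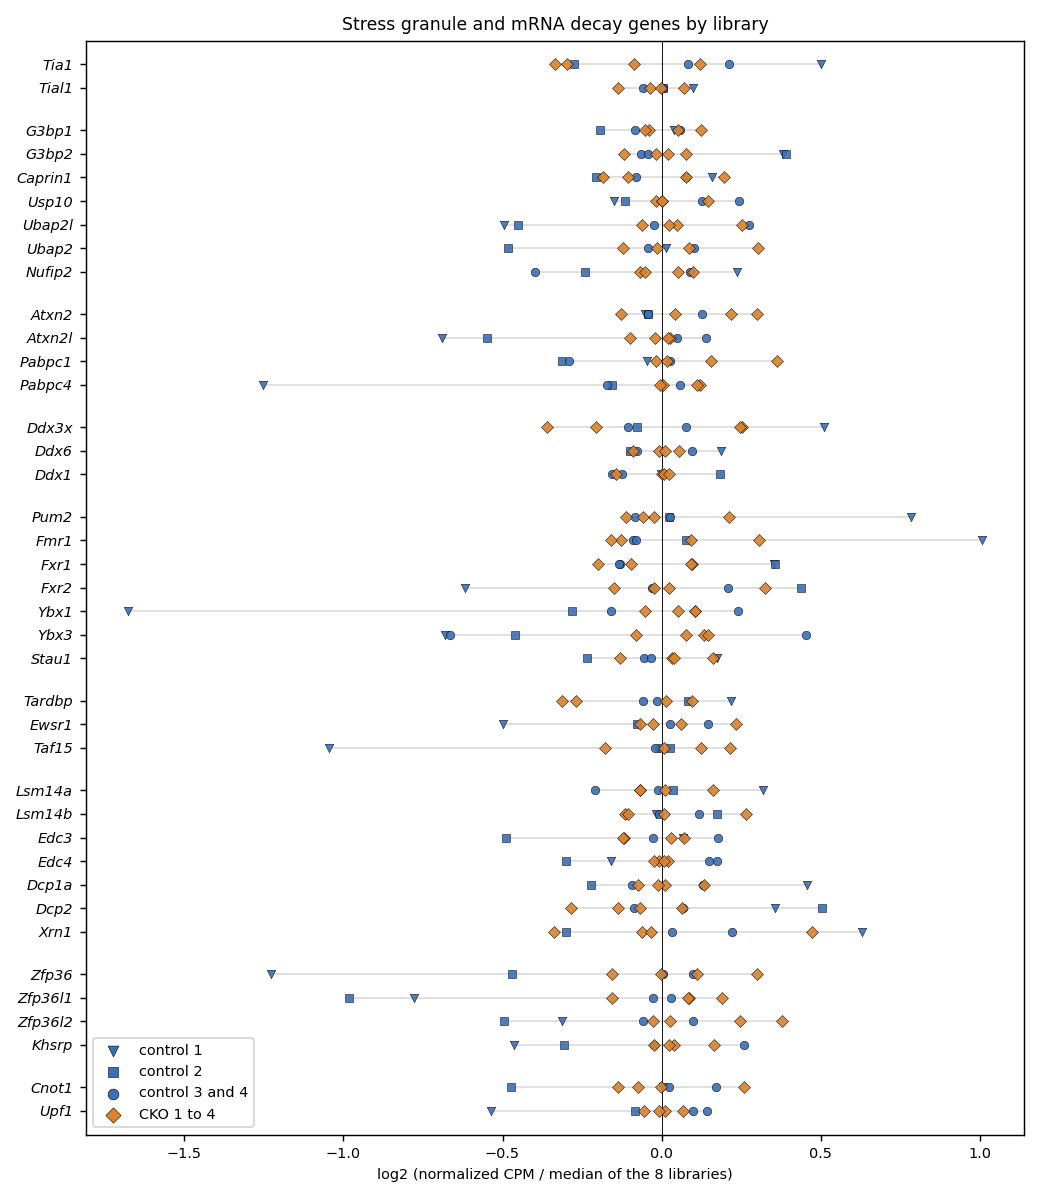
Normalized CPM of each member in each library, as the log2 ratio to the median of the 8 libraries, grouped by role; blue symbols are control libraries and orange diamonds CKO libraries. Control 1 (triangles) is the highest or lowest library for 24 of the 39 members, and in no member do the groups separate.

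Of the remaining pair, Cnot1, the scaffold of the deadenylase complex, was at 0.07 (SE 0.17) and Upf1, the helicase of nonsense-mediated decay, at 0.07 (SE 0.16). Cnot1 was lowest in control 2, at 55.4 CPM, and at 70.0 to 92.1 CPM in the others, and Upf1 was lowest in control 1, at 36.4 CPM, against 49.8 to 58.3 CPM in the others. Cnot1 was at -0.05 without control 2, and Upf1 at -0.05 without control 1.

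The deviation of control 1 ran with the base composition and the length of the members' transcripts. With each gene's deviation taken as its log2 CPM minus the median of the other 7 libraries, 16 of 39 members lay over 0.5 log2 units away in control 1 and 6 in control 2, against 0 or 1 in each other library. These shares, 41.0% and 15.4%, were below those of all genes tested, 45.9% and 22.9%, as were the 0% to 2.56% of the other libraries against 12.4% to 19.3%. Across members, the deviation in control 1 had a Pearson r of -0.71 and a Spearman rho of -0.77 with the GC content of the transcript, and a rho of 0.54 with its length. These 39 genes come from 1 library and are not independent replicates. Over all genes tested rho was -0.51 with GC content and 0.24 with length. Of the 19 members below the median GC content of 49.0%, 17 were above the other libraries in control 1, with a median deviation of 0.33. Of the 20 at or above it, 17 were below, with a median of -0.52. Members' GC content ranged from 36.9% for Fmr1 to 58.5% for Fxr2.

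**Figure D5:**
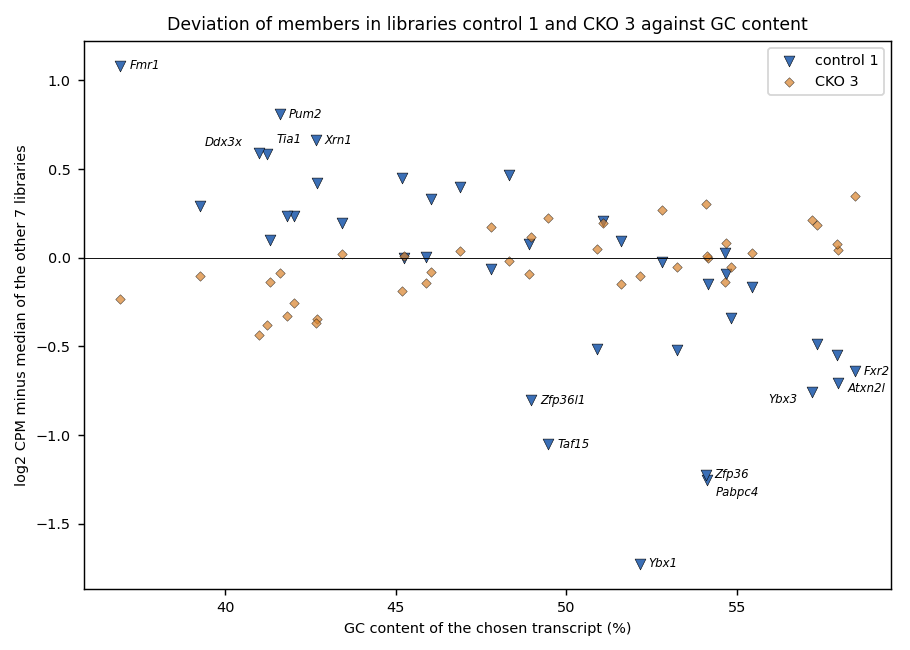
Deviation of each member in control 1 (triangles) and CKO 3 (diamonds), as log2 CPM minus the median of the other 7 libraries, against the GC content of its transcript in percent. The triangles run from above 0 at low GC content (Fmr1, Pum2) to below 0 at high GC content (Ybx1, Pabpc4, Zfp36), and the diamonds run the other way over a smaller range of deviation.

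Over the 39 members, Pearson's r with GC content was above 0 in CKO 3 (0.69), CKO 1 (0.62), control 3 (0.26) and control 4 (0.24), and below 0 in CKO 4 (-0.35), control 2 (-0.28) and CKO 2 (-0.19). Over all genes tested, Spearman's rho was 0.41 in CKO 3, 0.32 in control 4, 0.20 in CKO 1 and 0.12 in control 3. It was -0.27 in CKO 4, -0.16 in CKO 2 and -0.11 in control 2. In CKO 3 the rho with length was -0.58 over the 39 members and -0.096 over all genes tested. In CKO 3 and CKO 1 the median absolute deviation of members was 0.14 and 0.10 log2 units, against 0.42 in control 1. The differences between the groups were smaller without control 1. The median absolute log2 fold change of members was 0.14 with all libraries and 0.07 without control 1, and it shrank for 25 of 39 members. Control 1 was singled out for standing apart, so its omission tends to shrink differences. With a trend of each library on GC content and length removed, a setting chosen after the data were seen, the median was 0.11 and it shrank for 27 of 39 members. That trend was fitted to these same libraries, and the share over all genes was not computed for either count. With the trend removed Zfp36l1 was at 0.42, Zfp36 at 0.34 and Zfp36l2 at 0.29, so these values moved little, and Khsrp was at 0.11. Some other members higher in CKO moved as little, with Ybx1 at 0.33, Pabpc4 at 0.32, Pabpc1 at 0.29 and Taf15 at 0.23. Dcp2 moved to -0.17, Tia1 to -0.15 and Tardbp to -0.01.

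In the wider machinery of mRNA decay and RNA granules no gene passed either. Of 106 further genes in 7 lists, 104 passed the low-count filter, all but Exosc6 and Igf2bp1, and 0 passed the test. At an unadjusted p under 0.05 there was 1 (0.962%, against 1.42% of all genes). By sign 41 were higher and 63 lower in CKO (median log2 fold change -0.05). The single gene was Lsm2, of the ring that binds deadenylated mRNA ends, at 8.97, 13.0, 15.9 and 13.9 CPM in control libraries, against 19.2, 16.8, 16.3 and 18.4 CPM in CKO libraries. The groups did not overlap, which 0.701% of all genes showed with CKO higher. The log2 fold change was 0.45 (SE 0.19, unadjusted edgeR p 0.0386, adjusted p 1.00).

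Cnot4, a ubiquitin ligase bound to the deadenylase complex, was also above in all CKO libraries, with 17.7 ± 1.14 CPM (SD, n = 4) among controls and 21.3 ± 2.39 CPM in CKO (log2 fold change 0.27, SE 0.15). Igf2bp2, which protects mRNA from decay, was at 6.70 ± 2.79 and 9.94 ± 3.16 CPM. In the other direction, Cirbp, the cold-inducible RNA-binding protein, was at 38.9 ± 5.80 and 30.7 ± 5.34 CPM (log2 fold change -0.34, SE 0.17), and the exosome subunit Exosc9 at 27.9 ± 6.34 and 21.9 ± 3.15 CPM. Tnrc6a, the partner of Argonaute in microRNA silencing, was at 52.3 ± 1.76 and 45.6 ± 3.43 CPM, with 3 of 4 CKO libraries below every control library. None of these genes passed the test.

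By list, the CCR4-NOT and deadenylation genes were higher in 9 of 17 cases, the other decapping genes in 10 of 14, the other nonsense-mediated decay genes in 6 of 14 and the exosome genes in 9 of 17. The microRNA silencing genes were higher in 0 of 9 cases, with a median log2 fold change of -0.13 and a range of -0.24 to -0.02. The other AU-rich element and stem-loop binding genes were higher in 1 of 6 cases, with a median of -0.11, and other stress granule genes in 6 of 27, with a median of -0.10. The list level of the microRNA silencing genes was 0.21, -0.12, 0.11 and 0.06 in control 1 to 4. It was -0.08, -0.13, -0.09 and 0.04 in CKO 1 to 4. The groups overlapped there through control 2 alone, and CKO 4 lay just below control 4.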

How the data were processed

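RNA-seq libraries of injured spinal cord were prepared from total RNA by the NEBNext Ultra RNA method, per the labels' protocols. The authors deposited whole-number read counts per gene, not normalized, and FPKM values for the same genes. Per the submitters' processing notes, featureCounts 1.5.0-p3, HISAT2 2.0.5, DESeq2 1.20.0, CASAVA 1.8 and fastp were used, with no roles given. The notes name a human build, but the tables hold mouse gene identifiers, and all 39 members have the same start and end in GENCODE M21 on GRCm38. Strand use and the handling of reads with several matches were not found in these labels. Exons of 20 members overlap those of another gene, 14 of them on the opposite strand, and 4 share over 1000 bases (G3bp2, Tardbp, Edc3 and Zfp36l1). Ybx1 and Zfp36l1 also have a pseudogene in the table that bears their symbol. Pseudogenes under other names were not looked for.

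Members and lists were chosen with earlier results of these data known. Counts were tested with edgeR 4.0.16 in R 4.3.3 (filterByExpr at its count minimum of 10 and total minimum of 15, TMM scaling, quasi-likelihood F test with robust=TRUE, genotype as the only term) over all genes, with Benjamini-Hochberg adjustment and a threshold of 0.05. Normalized CPM are TMM-scaled counts per 1000000. FPKM gave levels between genes and the Tia1 over Tial1 ratio. Tia1, Tial1 and that ratio had exact two-sided permutation tests over 70 assignments. GC content was that of 1 transcript per gene. The common biological coefficient of variation was 0.27. On simulated data for CKO against control, over 16283 genes, the test recovered 10% of 50 genes changed 1.5-fold, 48% at 2-fold, 94% at 3-fold and 98% at 4-fold.

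Values in every library are given for Tia1, Tial1 and the 4 members of smallest p in each direction. They are also given for the 3 most and 2 least abundant members by FPKM, the Zfp36 family, G3bp1 and G3bp2. Those of further members, chosen after their values were seen, are given too. Of the other lists, the 3 genes of smallest p in each direction are named. Alternatives were DESeq2 size factors, no filter, a stricter filter, robust=FALSE, the DESeq2 1.42.0 Wald test, limma-voom, limma-trend on log2 FPKM with pseudocounts 1 and 0.1, a replicate block and each library left out. Removal of a GC and length trend, and of control 1 and 2 together for the AU-rich element decay genes, was added after the data were seen.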

Additional observations from a re-analysis of the deposited data

Results flagged for a closer look

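Of 78 tests of a single library against its own group, 7 showed a library far from the other 3, and 3 of the 7 were in control 1. Independent, normally distributed values would give about 1 in 20 groups. The tests share the same libraries and the share over all genes was not computed, so the count is not a result about the members. In control 1, Pum2 stood at 241.4 CPM (132 to 143 in the other control libraries), Fmr1 at 99.9 CPM (46.8 to 52.4) and Taf15 at 20.6 CPM (42.0 to 43.4). Ybx3 stood at 179.2 CPM in control 3 (81.6 to 95.04), and Atxn2 at 45.3 CPM in control 4 (40.0 to 40.2). In CKO, Usp10 stood at 36.0 CPM in CKO 4 (32.1 to 32.5) and Ddx1 at 105.1 CPM in CKO 2 (116 to 118). The Usp10, Atxn2 and Ddx1 values differ from their groups by little in size, since the other 3 libraries lay very close together.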

How the results depend on the processing

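The count of members past the threshold was 0 in the main test and in all alternatives run over all genes, and the count over all genes was 0 except under the DESeq2 Wald test, which called 1 gene, no member. Genes at an unadjusted p under 0.05 numbered 234 of 16537 in the main test and 1104 of 16823 without control 3. They numbered 380 of 16805 without control 4, 218 of 16810 without control 2 and 755 of 28894 with no filter. Members among them numbered 0 in the main test, 5 without control 3 (Ubap2l, Pabpc1, Ybx3, Zfp36l1 and Zfp36l2), 2 without control 4 (Dcp2 and Zfp36l1), 1 without control 2 (Tia1) and 1 with no filter (Zfp36l1). The replicate numbers did not pair the libraries (correlations of deviations -0.06, 0.05, -0.09 and -0.33 for numbers 1 to 4). With the replicate block 0 genes were called and 140 had an unadjusted p under 0.05, Usp10 had a log2 fold change of 0.0059, and the Tia1 to Tial1 difference had a sign-flip permutation p of 0.375, where 0.125 is the smallest possible.

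For log2 fold changes that turned sign the cause was not tested. Usp10, at -0.0019 in the main test, was 0.016 with no filter, 0.0032 under DESeq2, 0.0038 under limma-voom, 0.0079 on log2(FPKM + 1) with and without a filter and 0.012 on log2(FPKM + 0.1). Ddx1 was 0.011 with no filter and 0.0011 and 0.0013 on the FPKM scales. With the GC and length trend removed, Tial1 was 0.097, Ddx3x 0.041, Ddx6 0.084, Ddx1 0.062, Fmr1 0.034, Fxr2 -0.054, Lsm14a 0.0088 and Edc4 -0.023. Without control 1 and 2, Khsrp was -0.079.

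Leaving out each library in turn kept the sign of 21 of 39 members in all 8 fits. Those that turned ranged from -0.069 to 0.00094 for Tial1, -0.059 to 0.070 for Caprin1, -0.057 to 0.077 for Usp10, -0.028 to 0.18 for Nufip2, -0.20 to 0.043 for Ddx3x, -0.079 to 0.017 for Ddx6, -0.048 to 0.066 for Ddx1, -0.31 to 0.020 for Pum2, -0.37 to 0.070 for Fmr1, -0.16 to 0.16 for Fxr2, -0.00012 to 0.14 for Stau1, -0.11 to 0.070 for Lsm14a, -0.11 to 0.10 for Edc3, -0.062 to 0.095 for Edc4, -0.16 to 0.073 for Dcp1a, -0.32 to 0.041 for Xrn1, -0.048 to 0.16 for Cnot1 and -0.051 to 0.16 for Upf1.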
